A study of Mus musculus with 17 samples.

Results

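The 9 genes described here encode nuclear regulators known from haematopoietic stem cells: Myb, Mecom, Hlf, Meis1, Ikzf1, Ikzf2, Cbfb, Bmi1 and Etv6. They were taken by name, each by the brightest of its probe sets with a single gene symbol, and all 9 were among the 19937 genes measured. The study hybridized 17 Affymetrix Mouse Gene ST arrays with RNA of CD31+CD45-Ter119- cells, sorted from the aorta-gonad-mesonephros (AGM) region of pooled E11.5 mouse embryos. The fresh endothelial Kit- population and the fresh Kit+ population, which holds the haematopoietic cluster cells, gave 3 arrays each. The other arrays came from such CD31+ cells kept for 2 h on OP9 stroma and then re-sorted by Kit. OP9 is a mouse bone marrow stromal line, here overexpressing the Notch ligand Jag1 (groups Kit-J and Kit+J) or Dll4 (groups Kit-D and Kit+D). Kit-J gave 2 arrays, since a further sample was set aside by the authors for technical reasons, and Kit+J, Kit-D and Kit+D gave 3 each. No mutant allele or drug is named for any of the groups, and the labels name no strain. Per the labels 5 ng of RNA was amplified for each array.

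The fresh arrays were made for a previous study, and an effect of culture cannot be told apart from that of the array set in any comparison with them. The description line of both Kit-J arrays and of the third Kit-D and Kit+D replicates names the opposite Kit population. Groups were taken from the titles. The Kit transcript itself was at 8.132 to 8.288 (log2 signal) in Kit- and at 9.44 to 9.548 in Kit+. In the arrays labelled Kit-J it was at 9.081 and 8.496, and the first of these lay above Kit+J replicate 2 at 9.02. Kit was not called different between Kit+J and Kit-J (log2 difference 0.63, 95% interval 0.01 to 1.25, adjusted p = 0.458 from limma), and was called higher in Kit+D than in Kit-D (1.24, adjusted p = 0.00633). The mean of 8 endothelial markers was 9.05 to 9.24 in Kit- and 9.46 to 9.82 in Kit-D. It was 6.6 and 7.07 on the Kit-J arrays. These lay above all Kit+ arrays (5.83 to 6.31) and Kit+J arrays (5.71 to 5.99) and within the range of Kit+D (6.12 to 7.33). Every Kit-J result below rests on these 2 arrays and on their titles. The mean of 6 pan-haematopoietic markers was 6.57 to 8.38 on 14 arrays and 5.03 to 5.27 on the other 3, replicates 2 and 3 of Kit-D and replicate 3 of Kit+D. On these 3 arrays Ptprc, which encodes CD45, was at 4.462, 4.158 and 4.636.

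Blood stem cells arise in the embryonic aorta when endothelial cells turn on Kit and haematopoietic transcription and bud into clusters. Myb, a DNA-binding factor of proliferating progenitors, is needed for definitive but not for primitive haematopoiesis. Mecom, a zinc finger protein of the Prdm family, is needed to keep adult stem cells and is also transcribed in endothelium. The locus makes Mds1 and Mds1-Evi1 transcripts from an outer start and Evi1 from an inner start. Hlf, a bZIP factor of the PAR family, marks stem cells from their first appearance, and Meis1 is a homeodomain partner of Pbx and Hox proteins. Ikzf1 (Ikaros) and Ikzf2 (Helios) are zinc finger factors that recruit the NuRD chromatin complex. Cbfb is the partner that stabilizes Runx proteins on DNA, Bmi1 is a subunit of Polycomb repressive complex 1, and Etv6 is a repressor of the Ets family.

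The promoters of Mecom, Myb and Hlf are shown because these genes separated the fresh Kit fractions, and both Mecom starts because the gene also has more than 1 probe set. RefSeq promoters (GRCm38.p6) cover 300 bases around a transcript start, most of them upstream, and 8 of the 9 genes matched an entry, with 10 promoters in all. Ikzf2 had no entry. Capitals mark matches, on either strand, to 7 short motifs. The Runx motif searched was TGTGGT, the Gata motif was AGATAA and the Ets motif was CCGGAA. The Rbpj motif was TGGGAA, the Myb motif was CAACTG, the Meis motif was TGACAG and the motif of PAR bZIP proteins was TTACGTA.
Mecom outer start, chr3:30509710-30510009, minus strand: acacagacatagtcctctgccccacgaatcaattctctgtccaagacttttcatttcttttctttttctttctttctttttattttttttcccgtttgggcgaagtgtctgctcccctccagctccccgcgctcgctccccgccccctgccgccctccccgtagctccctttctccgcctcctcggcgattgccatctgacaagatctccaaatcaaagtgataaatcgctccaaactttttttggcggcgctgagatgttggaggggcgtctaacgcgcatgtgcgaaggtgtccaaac
Mecom inner start, chr3:30013155-30013454, minus strand: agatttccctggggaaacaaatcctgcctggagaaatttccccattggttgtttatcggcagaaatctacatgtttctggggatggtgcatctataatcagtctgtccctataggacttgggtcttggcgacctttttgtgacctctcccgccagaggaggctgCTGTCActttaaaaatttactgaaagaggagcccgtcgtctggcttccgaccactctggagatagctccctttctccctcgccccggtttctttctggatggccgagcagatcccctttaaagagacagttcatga
Myb, chr10:21160935-21161234, minus strand: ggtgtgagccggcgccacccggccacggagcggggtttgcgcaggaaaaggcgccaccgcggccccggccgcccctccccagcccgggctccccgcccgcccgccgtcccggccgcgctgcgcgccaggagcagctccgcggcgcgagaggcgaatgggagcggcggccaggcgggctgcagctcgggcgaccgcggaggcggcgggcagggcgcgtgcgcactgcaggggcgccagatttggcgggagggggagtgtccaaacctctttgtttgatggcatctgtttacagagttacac
Hlf, chr11:90390868-90391167, minus strand: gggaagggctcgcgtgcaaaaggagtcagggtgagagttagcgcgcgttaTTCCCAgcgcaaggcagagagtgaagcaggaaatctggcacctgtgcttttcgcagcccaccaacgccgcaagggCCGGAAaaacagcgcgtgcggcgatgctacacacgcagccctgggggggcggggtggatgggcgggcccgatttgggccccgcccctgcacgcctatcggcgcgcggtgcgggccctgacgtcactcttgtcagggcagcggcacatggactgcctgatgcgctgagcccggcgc
The inner Mecom promoter held 1 Meis match and the outer one none of the 7 motifs. The Hlf promoter held 1 Rbpj and 1 Ets match, and the Myb promoter none. Among 32851 promoters of this length a Meis match occurred in 19.2%, an Rbpj match in 25.6%, an Ets match in 14.9% and a Runx match in 16.8%. Gata matches occurred in 11.2%, Myb matches in 13.7% and PAR bZIP matches in 0.475%. Of the other members, Meis1 held a Runx, an Ets and an Rbpj match, and Bmi1 and Etv6 held 1 Rbpj match each. These matches are descriptions of letters and were not linked to binding.

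In the fresh cells Myb and Hlf were higher and Mecom was lower in Kit+ than in Kit-. These 3 of 9 members were called, beside 3.23% of all genes (adjusted p under 0.05, from limma over 19937 genes). The median difference of the 9 was 0.05, beside 0.065 for all genes. Fewer cells of a type and less RNA per cell cannot be told apart in these bulk samples.

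**Figure D1:**
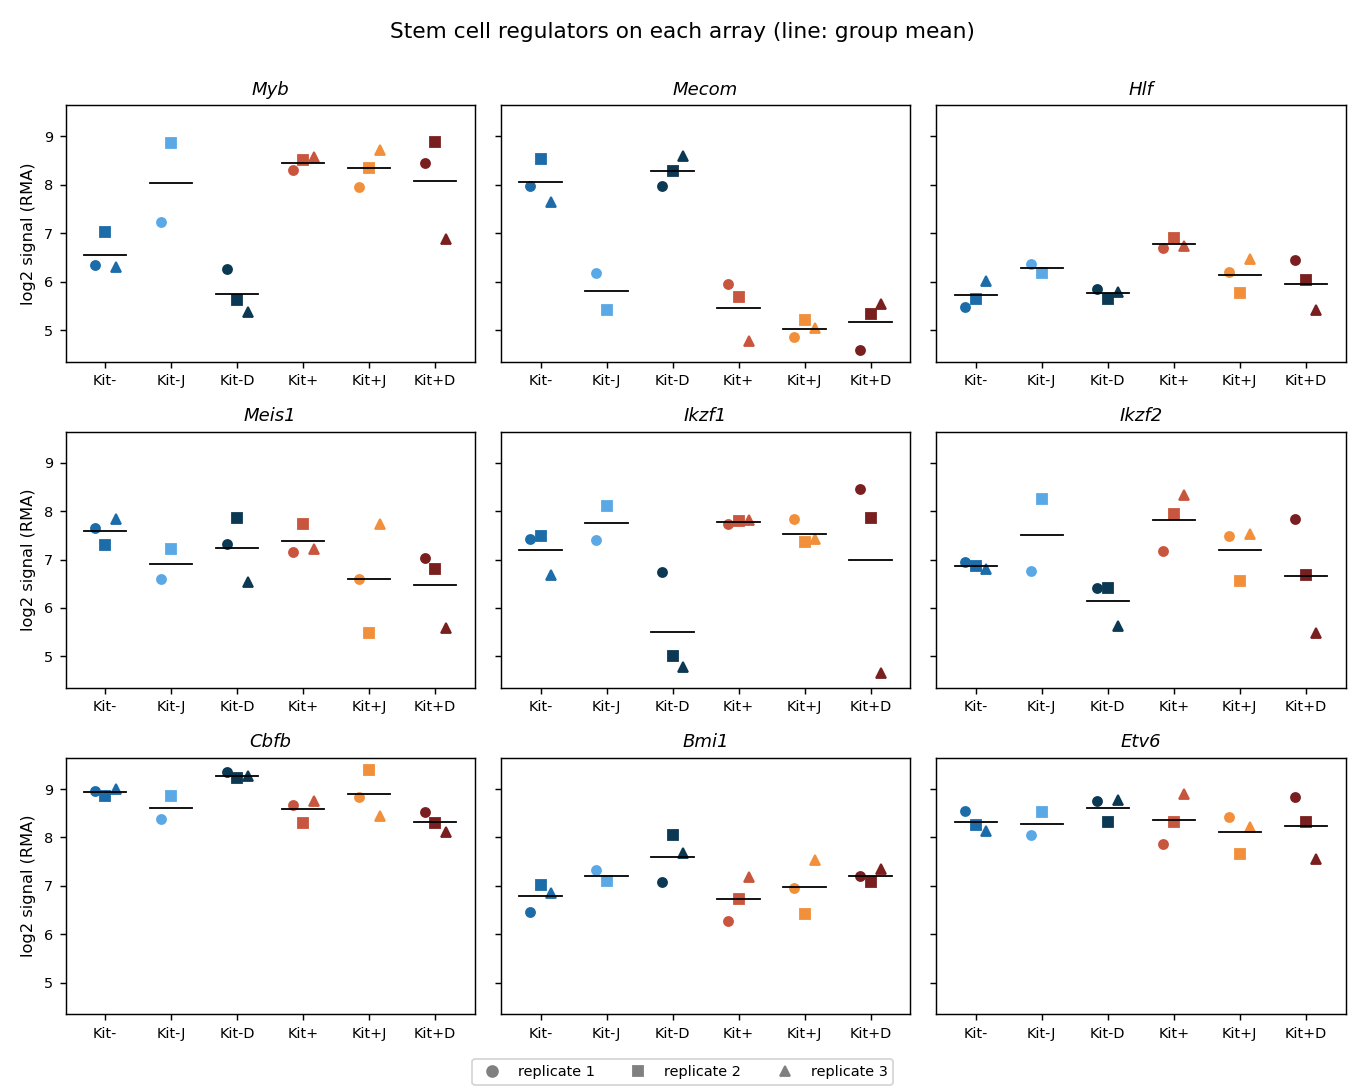
Log2 signal (vertical axis, RMA) of the 9 regulators on each of the 17 arrays, by group (horizontal axis), with a mark for each replicate and a line at the group mean. Mecom was between 7.653 and 8.589 in Kit- and Kit-D and between 4.592 and 6.176 in the other 4 groups, while Ikzf1 was lowest on Kit-D replicates 2 and 3 and Kit+D replicate 3.

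Mecom was at 7.983, 8.536 and 7.653 on the Kit- arrays and at 5.947, 5.674 and 4.773 on the Kit+ arrays. The groups did not overlap, and Mecom was lower in Kit+ (-2.59, SE 0.33, adjusted p = 0.000221). Kit+ replicate 3 lay below its array median, and so did all 3 Kit+J arrays and Kit+D replicate 1 (array medians 5.22 to 5.38). The values used here carry no detection call, so background cannot be set for Mecom in the Kit+ groups, and no fold is given for it. Myb was at 6.339, 7.027 and 6.295 in Kit- and at 8.297, 8.513 and 8.567 in Kit+, again without overlap. It was 3.75-fold higher in Kit+ (log2 difference 1.91, SE 0.47, adjusted p = 0.0373), a call that was lost with a random replicate block (adjusted p = 0.0518). Hlf was at 5.477, 5.648 and 6.024 in Kit- and at 6.691, 6.898 and 6.727 in Kit+. Its signal was 2.08-fold higher in Kit+ (1.06, SE 0.24, adjusted p = 0.0211). For Hlf, Kit- replicates 1 and 2 lay close to their array medians (5.3 and 5.32), and background was not set for this fold. The calls of Myb and Hlf depended on single fresh arrays. Without any 1 Kit+ array, or without Kit- replicate 1 or 3, the adjusted p of Myb rose to 0.0906 to 0.137, and without any 1 Kit+ array, or without Kit- replicate 1 or 2, that of Hlf to 0.0573 to 0.107. Mecom stayed called without each of the 17 arrays (differences from -2.83 to -2.25).

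The other 6 members were not called in fresh cells. Ikzf2 was at 6.803 to 6.952 in Kit- and at 7.179 to 8.338 in Kit+, and Ikzf1 at 6.672 to 7.485 and at 7.726 to 7.817. Neither overlapped between the groups, a property shared by 26.5% of all genes in this comparison, and the intervals included 0 (Ikzf2 0.94, -0.15 to 2.04, and Ikzf1 0.59, -0.97 to 2.14). Cbfb was at 8.85 to 8.995 in Kit- and at 8.299 to 8.753 in Kit+ (difference -0.36, interval -0.82 to 0.1). The intervals of Meis1 (-1.27 to 0.83), Bmi1 (-0.68 to 0.58) and Etv6 (-0.62 to 0.73) all included 0, and their arrays overlapped.

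After culture on OP9-Dll4 the split between the Kit fractions was again seen for Mecom and Myb. Kit+D and Kit-D differed in Myb, Mecom and Cbfb, 3 of 9 members, beside 13.1% of all genes, the broadest background of the 12 comparisons. Mecom was at 7.974, 8.284 and 8.589 in Kit-D and at 4.592, 5.342 and 5.547 in Kit+D. It was lower in Kit+D (-3.12, SE 0.33, adjusted p = 3.88e-05), where the group mean of 5.16 was itself below the array medians. Myb was at 6.257, 5.627 and 5.376 in Kit-D and at 8.459, 8.877 and 6.888 in Kit+D, 5-fold higher (2.32, SE 0.47, adjusted p = 0.00493). Kit-D replicates 2 and 3 lay close to their array medians (5.29 and 5.25), and background was not set for this fold. Kit+D replicate 3, which was low in haematopoietic markers, gave the lowest Myb of its group and still lay above every Kit-D array. Cbfb was at 9.351, 9.219 and 9.259 in Kit-D and at 8.527, 8.299 and 8.119 in Kit+D (-0.96, SE 0.21, adjusted p = 0.00881). Its call was lost without Kit-D replicate 3 and Kit+D replicate 3 (-0.87, adjusted p = 0.0726). Ikzf1 was at 6.751, 5.015 and 4.772 in Kit-D and at 8.463, 7.854 and 4.666 in Kit+D (1.48, interval -0.07 to 3.03, adjusted p = 0.2). Its difference was called without Kit+D replicate 3 (2.65, adjusted p = 0.00231). Hlf, the other gene called in fresh cells, was at 5.65 to 5.848 in Kit-D and at 5.411 to 6.443 in Kit+D (0.2, interval -0.31 to 0.7). The change in the Kit difference between fresh and OP9-Dll4 cells was not called for any member, beside 0% of all genes, and had an interval away from 0 only for Hlf (-0.86, interval -1.57 to -0.15, adjusted p = 0.472 from limma).

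On OP9-Jag1 none of the 9 members was called between Kit+J and Kit-J (0 also at an unadjusted p under 0.05), beside 0.0903% of all genes. Mecom was at 6.176 and 5.423 in Kit-J and at 4.863, 5.199 and 5.036 in Kit+J, lower in Kit+J on each array (-0.77, interval -1.55 to 0.02, adjusted p = 0.478). Myb was at 7.227 and 8.857 on the Kit-J arrays, which lay on either side of the whole range of Kit+J (7.963, 8.347 and 8.722). The interval of its difference was -0.81 to 1.42. The change in the Kit difference from fresh to OP9-Jag1 cells was 1.83 for Mecom (interval 0.77 to 2.88), -1.6 for Myb (-3.1 to -0.11) and -1.18 for Hlf (-1.94 to -0.43). None of these was called over all genes (adjusted p = 0.154, 0.499 and 0.228), beside 0.582% called.

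**Figure D2:**
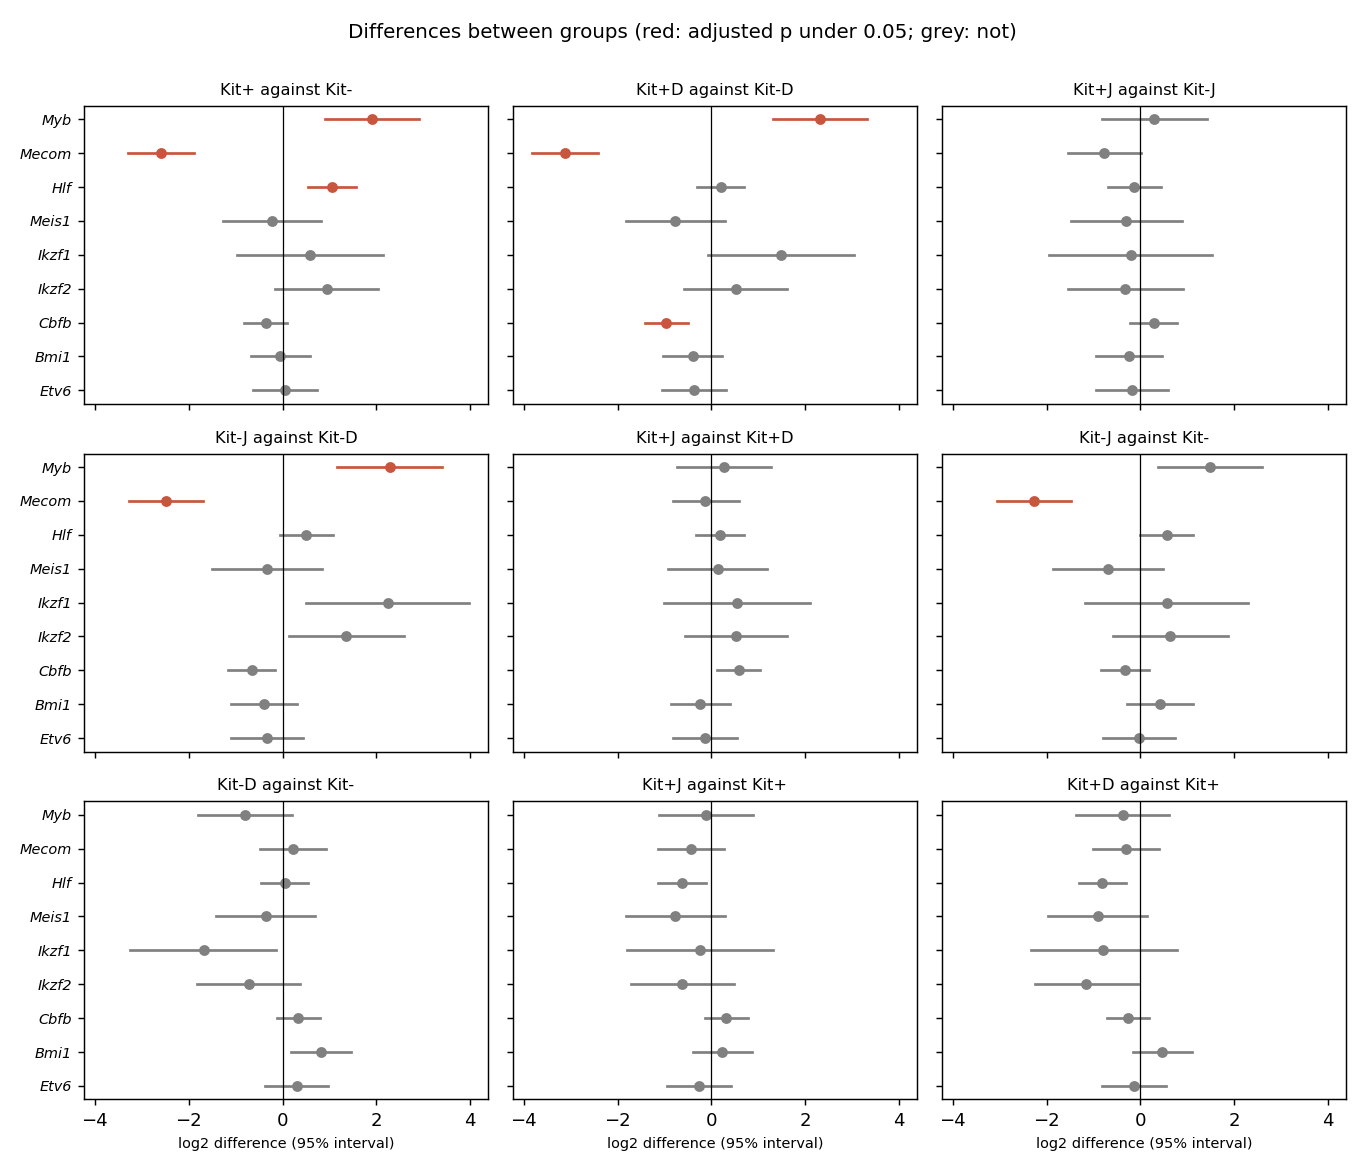
Log2 difference between groups (horizontal axis) with its 95% interval from limma for the 9 regulators (vertical axis) in the 9 comparisons of 2 groups, red where the adjusted p was under 0.05. Red points are Myb, Mecom and Hlf in Kit+ against Kit-, Myb, Mecom and Cbfb in Kit+D against Kit-D, Myb and Mecom in Kit-J against Kit-D, and Mecom in Kit-J against Kit-.

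The ligand comparison within the cultured arrays asks how cells of 1 Kit fraction differed after Jag1 and after Dll4. Kit-J had more Myb and less Mecom signal than Kit-D, 2 of 9 members called beside 9.37% of all genes. Mecom, at 6.176 and 5.423 in Kit-J against 7.974 to 8.589 in Kit-D, differed by -2.48 (SE 0.37, adjusted p = 0.000849). This holds for the brightest probe set only. The second Mecom probe set, described below, gave -0.09 here (SE 0.27, adjusted p = 0.859 from limma over all single-symbol probe sets). Myb, at 7.227 and 8.857 against 5.376 to 6.257, differed by 2.29 (SE 0.52, adjusted p = 0.0153). Without Kit-J replicate 2, the Myb difference was 1.47 (adjusted p = 0.104), and without Kit-D replicate 3 it was 2.1 (adjusted p = 0.0597). Without the 3 arrays low in haematopoietic markers neither call held (Myb 1.78, adjusted p = 0.154, and Mecom -2.17, adjusted p = 0.0614), in a fit that left Kit-D with 1 array, whose spread was borrowed from the remaining groups.

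Ikzf1 was at 7.394 and 8.11 in Kit-J and at 6.751, 5.015 and 4.772 in Kit-D, a difference of 2.24 that was not called (interval 0.5 to 3.98, adjusted p = 0.0935). Leaving out Kit+D replicate 3, which enters the shared spread, gave a call (2.24, adjusted p = 0.00794). Its 2 lowest Kit-D values came from the arrays where the pan-haematopoietic list was also lowest, 1.98 and 2.1 below the Kit- mean, and the part of these arrays' cell content in the result was not tested. Ikzf2 (1.36, adjusted p = 0.143) and Cbfb (-0.66, adjusted p = 0.0921) also had intervals away from 0 without a call, and Cbfb was called without Kit+J replicate 2 (adjusted p = 0.0415). In the Kit+ fraction none of the 9 members was called between Kit+J and Kit+D, beside 2.25% of all genes, and 1, Cbfb, had an unadjusted p under 0.05 (0.58, interval 0.12 to 1.04, adjusted p = 0.163). The interval of Mecom, low in both groups, was -0.83 to 0.58 and that of Myb -0.73 to 1.27.

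The ligand effect on Mecom differed between the Kit fractions by 2.36 (interval 1.3 to 3.41, SE 0.49, adjusted p = 0.0284), the 1 member called beside 1.98% of all genes. Mecom was low in both Kit+ groups (means of 5.03 in Kit+J and 5.16 in Kit+D, below the array medians), where a further fall may not be measurable. The difference between the fractions therefore cannot be told apart from this low level. The call also depended on the processing. It was not past the threshold (adjusted p under 0.05) with housekeeping scaling, array weights, the mean of the 2 probe sets or a fit of the 4 cultured groups alone (adjusted p = 0.07, 0.0757, 0.0706 and 0.0649), and it was lost without Kit-J replicate 1 or 2, Kit-D replicate 2 or 3, or Kit+J replicate 3 (adjusted p = 0.0525 to 0.0803). The difference kept its sign in each of these. Cbfb (1.24, adjusted p = 0.0606) and Myb (-2.02, adjusted p = 0.163) had intervals away from 0 without a call. Of the endothelial markers Pecam1, Kdr, Tek and Esam were called in the same test.

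Against fresh cells, Kit-J differed from Kit- in 1 of 9 members, beside 2.14% of all genes. Mecom was lower on the brightest probe set (-2.26, SE 0.37, adjusted p = 0.00395), with no overlap of arrays. The second Mecom probe set, described below, gave 0.18 (adjusted p = 0.801 from limma over all single-symbol probe sets). Myb was higher on both Kit-J arrays than on any Kit- array, but the difference of 1.49 was not called (interval 0.37 to 2.6, adjusted p = 0.208). Hlf, at 6.369 and 6.181 in Kit-J against 5.477 to 6.024, was likewise not called (0.56, adjusted p = 0.368). No member was called between Kit-D and Kit- (0 of 9, 2 at an unadjusted p under 0.05, beside 0.171% of all genes). Those 2 were Bmi1, at 7.087, 8.048 and 7.673 in Kit-D against 6.469 to 7.024 in Kit- (0.82, adjusted p = 0.297), and Ikzf1 (-1.68, adjusted p = 0.393). Mecom in Kit-D stayed close to Kit-, with an interval of -0.48 to 0.93.

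In the Kit+ fraction culture on either stroma gave no call. Between Kit+J and Kit+ 0 of 9 members were called (1 at an unadjusted p under 0.05), beside 0.0201% of all genes, and between Kit+D and Kit+ 0 of 9 (2 unadjusted), beside 1.42%. Hlf was the member in both unadjusted counts. It was at 6.2, 5.767 and 6.473 in Kit+J and at 6.443, 6.031 and 5.411 in Kit+D, in each case below all 3 Kit+ arrays. The differences were -0.62 (adjusted p = 0.59) and -0.81 (interval -1.31 to -0.31, adjusted p = 0.0983). The second was called with array weights (adjusted p = 0.0351) and without Kit+D replicate 1 (-1.05, adjusted p = 0.032).

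Mecom was the only member with more than 1 single-symbol probe set, and its probe sets did not agree in Kit-J. The platform table pairs probe set 10497590, used above, with 7 transcript records and probe set 10497608 with 3, of which 1 is shared. Neither the table nor the reference used here says on which exons the probes lie. On the second probe set Mecom was at 5.721, 6.178 and 5.206 in Kit- and at 5.657 and 6.112 in Kit-J, so that these groups overlapped. It was at 4.961, 4.654 and 4.84 in Kit+, at 4.728, 4.549 and 4.473 in Kit+J, at 6.012, 6.237 and 5.66 in Kit-D and at 4.236, 4.185 and 4.811 in Kit+D. Each of the 3 Kit- groups thus lay above each of the 3 Kit+ groups. In a fit of all 21640 single-symbol probe sets, chosen after these values had been seen, the second probe set differed between Kit+D and Kit-D (-1.56, SE 0.24, adjusted p = 0.000866). It gave -0.88 in Kit+ against Kit- (adjusted p = 0.0669), -1.3 in Kit+J against Kit-J (adjusted p = 0.103) and 0.18 in Kit-J against Kit- (SE 0.27, adjusted p = 0.801). The first probe set gave -2.26 in that last comparison in the same fit (adjusted p = 0.00424).

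**Figure D3:**
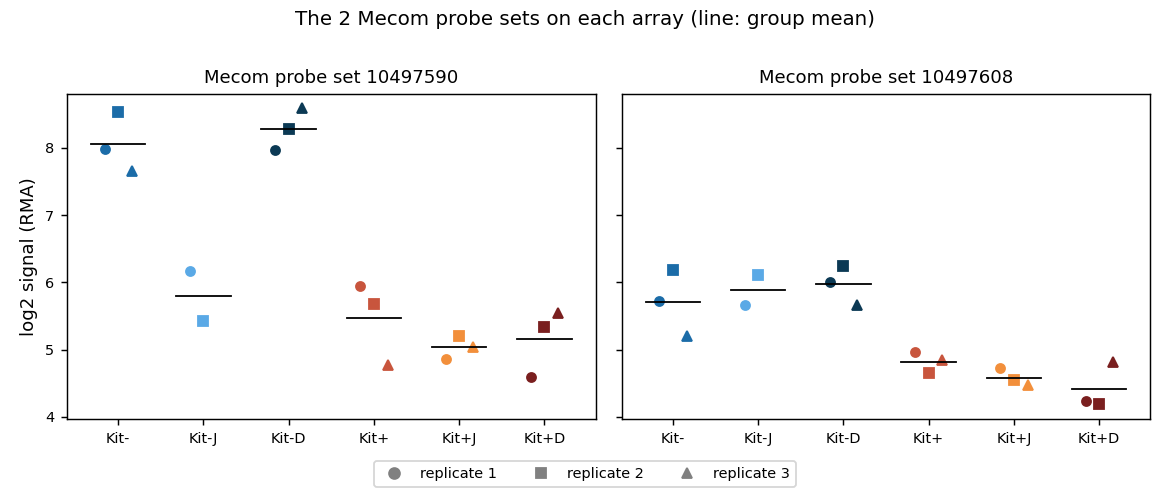
Log2 signal (vertical axis, RMA) of Mecom probe sets 10497590 (left) and 10497608 (right) on each array, by group (horizontal axis), with a line at the group mean. On the left the Kit-J arrays (6.176 and 5.423) lay below all Kit- arrays, and on the right (5.657 and 6.112) they lay among them.

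The difference between the probe sets was then tested itself, as the first minus the second on each array, over the 954 genes with 2 or more probe sets. From Kit- to Kit-J it moved by -2.44 for Mecom (SE 0.41, adjusted p = 0.0208, with 0.21% of these genes called), and from Kit-D to Kit-J by -2.4 (adjusted p = 0.0112, 4.61% called). From Kit-D to Kit+D it moved by -1.56 (adjusted p = 0.039, 4.3% called). From Kit- to Kit-D the change was -0.04 (adjusted p = 0.964), and from Kit- to Kit+ it was -1.71 (adjusted p = 0.0591). The second probe set was dimmer on most arrays, and all its values in the 3 Kit+ groups (4.185 to 4.961) lay below the array medians, and the part of signal level in this difference was not tested.

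Marker genes of other cell types moved with several members. Over the 17 arrays Mecom had a Pearson r of 0.939 with the mean of the 8 endothelial markers and Myb an r of -0.863. The arrays formed separate clusters, with no endothelial mean between 7.33 and 9.05. Of the 8 markers, 7 were called lower in Kit+ than in Kit-, beside 3.23% of all genes called in either direction. Kit-J had 7 of 8 lower than either Kit- (2.14% of all genes called) or Kit-D (9.37%). Kit+D had all 8 lower than Kit-D (13.1%). Kit+J had 1 lower than Kit-J (0.0903%), Tek (-1.4, adjusted p = 0.0206 from limma). Cdh5, which encodes VE-cadherin, was at 11 to 11.1 in Kit- and at 8.153 and 8.294 in Kit-J. It was at 5.653 to 6.552 in Kit+, at 4.682 to 6.332 in Kit+J and at 5.932 to 8.579 in Kit+D. Ikzf1 had an r of 0.902 with the 6 pan-haematopoietic markers and Ikzf2 an r of 0.768. Primordial germ cells are also Kit+ cells of this region, and the mean of 10 germ cell markers was 7.7 to 7.92 in Kit-. It was higher on every Kit+ array (8.85 to 9.21), Kit-J array (8.69 and 8.92) and Kit+J array (9.2 to 9.45). Kit-D had means of 5.14 to 6.85, and the Kit+D arrays had 5.73 (replicate 1), 9.03 and 9.73. Of the 10 markers, 8 were called higher in Kit-J than Kit-D and 4 in Kit+D than Kit-D, beside 9.37% and 13.1% of all genes. On Kit+D replicate 1, low in germ cell markers, Myb was at 8.459, within the range of Kit+, and Mecom at 4.592, its lowest value. The same array had the highest means of all 17 arrays for the pan-haematopoietic markers (8.38) and for 10 myeloid markers (8.01). The mean of 10 stromal markers had an r of -0.857 with Myb, -0.811 with Ikzf1, -0.804 with Hlf and 0.786 with Mecom. Of these markers 3 were called lower in Kit+ than in Kit-, 3 in Kit-J than Kit-D and 4 in Kit+D than Kit-D. The shares of all genes called in either direction were 3.23%, 9.37% and 13.1%. The third replicates of Kit-D and Kit+D stood apart in Acta2 (9.917 and 9.38, at most 7.686 elsewhere) and in Mgp (10.55 and 9.75, at most 6.818 elsewhere). Of 7 measured erythroid markers (of 8), 2 were called lower in Kit+ than in Kit-, beside 3.23% of all genes. The same 2 were called higher in Kit+D than in Kit+, beside 1.42%. These were Hba-x (-3.95 and 4.41) and Hbb-y (-4.03 and 4.29). Mecom had an r of 0.604 with the mean of 5 measured megakaryocytic markers (of 8). The part of germ, endothelial, stromal and blood cells in the members' differences was not tested. These correlations share arrays and groups and are descriptions.

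**Figure D4:**
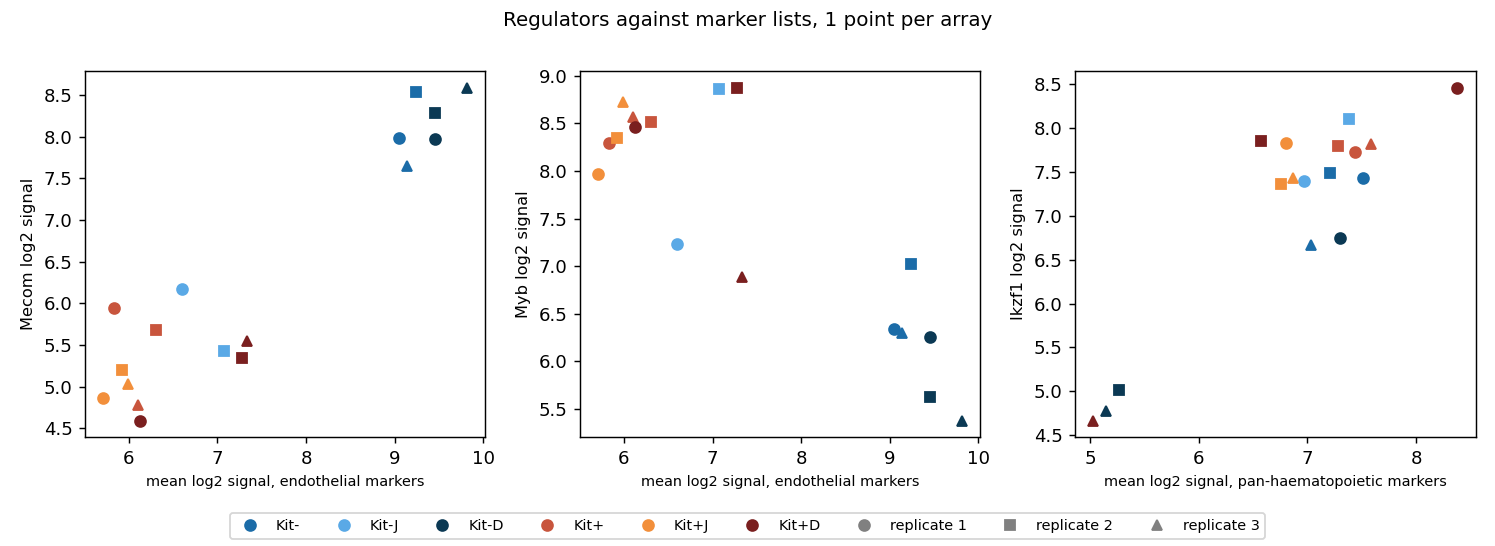
Log2 signal of Mecom and Myb (vertical axes, left and middle) against the mean of 8 endothelial markers and of Ikzf1 (right) against the mean of 6 pan-haematopoietic markers (horizontal axes, log2), 1 point per array, coloured by group. Mecom followed the endothelial mean (r = 0.939), and the 3 arrays with the lowest Ikzf1 (4.666 to 5.015) had the lowest haematopoietic means (5.03 to 5.27).

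Ordered by group mean, Mecom was highest in Kit-D (8.28 ± 0.308, SD, n = 3) and Kit- (8.06 ± 0.447, n = 3), which overlapped. It was followed by Kit-J (5.8 ± 0.533, n = 2), Kit+ (5.46 ± 0.615, n = 3), Kit+D (5.16 ± 0.503, n = 3) and Kit+J (5.03 ± 0.168, n = 3), and each of these neighbours overlapped too. The only gap was thus between Kit- and Kit-J. Myb ran from Kit+ (8.46 ± 0.143, n = 3) over Kit+J (8.34 ± 0.379, n = 3), Kit+D (8.07 ± 1.05, n = 3) and Kit-J (8.04 ± 1.15, n = 2) to Kit- (6.55 ± 0.411, n = 3) and Kit-D (5.75 ± 0.454, n = 3). Hlf was highest in Kit+ (6.77 ± 0.11, n = 3), with no array of another group reaching it, and lowest in Kit- (5.72 ± 0.28, n = 3). Meis1 spanned 5.489 to 7.85, and its largest spread within a group was in Kit+J (SD 1.13). Ikzf1 varied most within a group, from 4.666 to 8.463 in Kit+D (SD 2.04). Cbfb and Etv6 had the narrowest ranges, 1.28 and 1.34 between their extreme arrays, and Bmi1 spanned 1.77.

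Genes with the most similar profiles over the 17 arrays were found by Pearson r, leaving out provisional symbols. For Mecom they were Armcx1 (r = 0.974), Prex2 (0.97) and Limch1 (0.97), and r over the 6 group means was 0.988 or more. For Myb they were Wdr12 (0.915), Ccnb1ip1 (0.876) and Fignl1 (0.873), for Hlf Dpp4 (0.838), Pou5f2 (0.813) and Parl (0.81), and for Ikzf1 Srgn (0.954), Rac2 (0.944) and Rgs1 (0.935). Ikzf2 went most closely with Bcap29 (0.893), Cbfb with Hoxa4 (0.863), Meis1 with Tma7 (0.863), Etv6 with Slc35b3 (0.828) and Bmi1 with Pvr (0.815). Among the members themselves, Ikzf1 and Ikzf2 had the highest r (0.821), and Myb and Mecom the lowest (-0.876).

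The families and complexes around the 9 genes were counted in the same way. Among 16 Ets genes related to Etv6, none was called higher and 3 lower in Kit+ against Kit-, beside 3.23% of all genes called, with a list median of 0.01. These were Ets1, a factor of endothelial and lymphoid cells (-2.15, SE 0.26, adjusted p = 0.00016), Ets2 (-2.21, adjusted p = 0.00363) and Elk3 (-1.75, adjusted p = 8.17e-05). The same 3 were called lower in Kit-J against Kit- (Ets1 -2.01, adjusted p = 0.0018). In Kit-J against Kit-D 5 were lower and 1 higher (9.37% of all genes called), and in Kit+D against Kit-D 6 were lower and 1 higher (13.1% of all genes called), the higher one being Etv5 in both (1.93, adjusted p = 0.0274, and 1.84, adjusted p = 0.0143). Ets1 was at 7.975 to 8.138 on the Kit- arrays and 8.349 to 9.033 on the Kit-D arrays, but at 5.84 and 6.294 on the Kit-J arrays. Like Mecom it had a ligand effect that differed between the Kit fractions (1.92, adjusted p = 0.0258). Etv6 itself had no such pattern, with group means from 8.1 to 8.61.

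Of 11 Meis and Pbx partners, 2 were called lower in Kit+ against Kit-, beside 3.23% of all genes called in either direction. These were Meis2 (-2.78, SE 0.37, adjusted p = 0.000295) and Hoxb4 (-1.11, adjusted p = 0.0119). Meis2, a paralogue of Meis1, was at 8.152 to 8.371 on the Kit- arrays and at 7.262 to 8.318 on the Kit-D arrays. Its Kit-J values were 5.087 and 6.483, and those of the 3 Kit+ groups were 5.027 to 6.161. Kit-J had a lower Meis2 signal than Kit- (-2.45, adjusted p = 0.00459) and Kit-D (-2.08, adjusted p = 0.0061), while Meis1 was called in none of the 12 comparisons. Hoxb4 was lower in Kit+D than in Kit-D (-1.73, adjusted p = 0.000249). How far probes of these paralogues share signal was not tested.

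Among 5 genes of the core binding factor list, Runx3, a paralogue of Runx1, was called higher after Jag1 than after Dll4 in both Kit fractions (Kit- 2.11, SE 0.49, adjusted p = 0.0172, and Kit+ 1.94, adjusted p = 0.0365). Runx3 was at 7.287, 6.253 and 5.952 in Kit-D and at 8.579 and 8.635 in Kit-J. In Kit+D it was at 8.029, 6.343 and 6.06 and in Kit+J at 8.116, 9.216 and 8.912. The fresh arrays were at 8.043 to 8.34 (Kit-) and at 8.125 to 8.642 (Kit+). Kit-D replicates 2 and 3 and Kit+D replicate 3 were the arrays low in haematopoietic markers, and the part of their cell content was not tested. Runx1, the partner of Cbfb needed for blood emergence, was called in none of the 12 comparisons, with group means from 7.26 to 8.3. Among 14 measured genes of Polycomb repressive complex 1 (of 16), Pcgf5, a paralogue of Bmi1, was called higher in Kit+ than in Kit- (1.16, adjusted p = 0.0249), in Kit-J against Kit-D (1.51, adjusted p = 0.0061) and in Kit+D against Kit-D (1.09, adjusted p = 0.0141). In Kit+D against Kit-D 2 genes of this complex were higher and 3 lower, beside 13.1% of all genes called, among them Phc1 (1.23, adjusted p = 0.0102) and Pcgf3 (-1.13, adjusted p = 0.00684). Bmi1 was called in none of the 12 comparisons. Of the 8 genes of Polycomb repressive complex 2, 1 was called, Suz12 in Kit+D against Kit-D (0.73, adjusted p = 0.0128).

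In the 12 genes of the Ikaros family and NuRD list, Chd3, a NuRD helicase, was called lower in Kit+ against Kit- (-1.14, adjusted p = 0.0345), in Kit-J against Kit-D (-1.42, adjusted p = 0.0115) and in Kit+D against Kit-D (-1.27, adjusted p = 0.00748). No gene was called among the 3 relatives of Hlf (Dbp, Tef and Nfil3) or the 7 measured genes of the Prdm list (of 8) in any comparison. Of the 5 genes of the Myb list, Mybl2, a cell cycle relative of Myb, was called higher in Kit+D than in Kit-D (1.23, adjusted p = 0.0274). Of 15 regulators of stem cell maintenance, 5 were lower in Kit+D against Kit-D, beside 13.1% of all genes called in either direction, among them Zfp521 (-2.21, adjusted p = 0.000456), Sox17 (-1.52, adjusted p = 0.00298), Mllt3 (-1.5, adjusted p = 0.0142) and Hoxb4. In fresh cells Lin28b was higher in Kit+ (1.14, adjusted p = 0.0445) and Sox17 lower (-1.16, adjusted p = 0.0357). Of 10 early blood factors none was called in fresh cells, beside 3.23% of all genes. Fli1 and Erg were called lower in Kit+D than in Kit-D (-2.01, adjusted p = 0.0079, and -1.66, adjusted p = 0.00624), beside 13.1% of all genes. In Kit-J against Kit-D, Fli1 and Lmo2 were called lower (-2.16, adjusted p = 0.0151, and -1.24, adjusted p = 0.0482, from limma), beside 9.37% of all genes. Fli1 and Erg are also endothelial genes.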

How the data were processed

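Per the labels, the authors deposited log2 values of Affymetrix arrays processed with RMA (version not given in the sources used here), a background correction, quantile normalization and probe summary. Over the 17 arrays they ran from 1.237 to 13.58, with array medians of 5.22 to 5.38, and every column was mapped to a sample. Raw intensities were not used here. Of 34760 probe sets, 21640 had a single gene symbol, 1321 had several and 11799 had none. For the 954 genes with several probe sets the brightest was kept, which left 19937 genes. The number of arrays limits the precision.

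All comparisons came from limma 3.58.1 (R 4.3.3), fitted once to the 6 group means. The 2 Kit-J arrays therefore borrow their spread from the other groups. Benjamini-Hochberg adjustment ran over all genes, calls needed an adjusted p under 0.05, and intervals are at 95%. The code was tested on simulated data. Replicates were independent sorting experiments.

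The members, lists and comparisons were chosen with earlier results of these data known. The text names the members, the 3 genes most similar to each by Pearson r, the called genes of a list with the smallest adjusted p (up to 4 per list and comparison) and markers that moved with a result. Runx1, Dbp, Tef and Nfil3 were added after their values were seen. An item withheld from this work is not reported here. The alternatives tried were other sets of arrays or groups, a trended prior, no dim genes, scaling to 7 housekeeping genes (of 8), renewed quantile normalization, weighted arrays, averaged probe sets, a minimum log2 difference of 1 and replicate blocks. Deviations from the group mean correlated at 0.179 to 0.462 between same-numbered OP9-Dll4 arrays and at most at 0.134 between differently numbered ones. Same-numbered OP9-Jag1 arrays correlated at -0.114 and -0.263, and differently numbered ones at -0.194 to 0.263. Fresh arrays correlated at 0.00644 to 0.065 when same-numbered and at -0.0651 to 0.0364 otherwise. A possible pairing was thus seen for the OP9-Dll4 arrays only, and it is not stated in the labels. The reported fits held no replicate block, and blocks were used only in the alternatives. Any pair of arrays shared at most 1.1% of values. Figures used matplotlib 3.10.9 in Python 3.11.15.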

Additional observations from a re-analysis of the deposited data

Results flagged for a closer look

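The difference of 2.36 (log2, adjusted p = 0.0284 from limma) between the ligand effects on Mecom in Kit+ and in Kit- cells stood out because the difference itself was tested. The ligand effect, Jag1 minus Dll4, was -2.48 in the Kit- fraction (lower on both Kit-J arrays than on all 3 Kit-D arrays) and -0.13 in the Kit+ fraction (interval -0.83 to 0.58). Mecom was below the array medians in both Kit+ groups on average (5.03 and 5.16), so that a ligand effect in the Kit+ fraction may not have been measurable and the difference cannot be told apart from this low level. On the second Mecom probe set the same difference was 0.26 (adjusted p = 0.775).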

How the results depend on the processing

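Between Kit+ and Kit- 3 members were called, and 1 to 3 when an array was left out. For Kit-J against Kit- the count was 1, but 0 with the mean of the probe sets. For Kit-J against Kit-D it was 2, and 1 when fitted on these groups only and 1 to 3 when an array was left out. Without the 3 OP9-Dll4 arrays low in haematopoietic markers (an alternative chosen after seeing the data), Kit-D kept 1 array. In that fit the differences were 1.78 for Myb and -2.17 for Mecom. For Kit+D against Kit+ the count was 0, and 1 with array weights and 0 to 1 when an array was left out. For the difference of the ligand effects it was 1. It became 0 with housekeeping scaling, with array weights, with the mean of the probe sets, with only the groups compared, without the 3 OP9-Dll4 arrays that stood apart and without the 3 low in haematopoietic markers. It was 0 to 3 when an array was left out, and 3 (Myb, Mecom and Ikzf1) without Kit+D replicate 3. Ikzf1 was also called in Kit+D against Kit-D without that array (2.65, adjusted p = 0.00231 from limma).

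No called member changed sign under these alternatives. Cbfb in Kit+D against Kit-D was lost without the 3 arrays that stood apart (-0.99, adjusted p = 0.108). With the replicate block, fixed, random or within the OP9-Dll4 arrays alone, the count in Kit+D against Kit-D was 3, as without it. In the same comparison Ikzf1 was also called with array weights (1.85, adjusted p = 0.0469 from limma). Cbfb (-0.96) was not called there when a log2 difference of at least 1 was required. The random replicate block (correlation -0.0644) moved Myb in Kit+ against Kit- to an adjusted p of 0.0518. Housekeeping scaling moved the median of all genes by -0.103 in Kit+ against Kit- and by -0.105 in Kit+J against Kit-J. The causes of these changes were not tested.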
